A study of Mus musculus with 4 samples.

Results

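The insulin-like growth factor (IGF) system was examined as chromatin accessibility at 9 genes, which encode the ligands Igf1 and Igf2, the receptor Igf1r, the binding proteins Igfbp2, Igfbp3, Igfbp4, Igfbp5 and Igfbp6, and the related protein Igfbp7. All ATAC-seq peaks in a gene or within 50 kb of it were taken, which gave 537 peaks that merged into 197 sites, of 170558 sites in the whole data set. ATAC-seq cuts and tags open chromatin with the Tn5 transposase, so a peak marks accessible DNA and is not a measure of expression. The chondrocytes came from the knee cartilage of postnatal C57BL/6 mice, 0 to 4 days old, and were grown in DMEM/F12 with 10% fetal bovine serum. The passage 0 (P0) group was primary cells kept in culture for less than 24 h, and the passage 8 (P8) group was the same kind of cells replated serially each time their number had doubled. Each passage had 2 libraries of 50000 cells, called library A and library B here because the peak names carry no replicate number. The labels do not say whether the libraries came from separate animals or cultures, so the spread between them may be technical. Passage number and time in culture cannot be told apart in these groups.

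Igf1 and Igf2 are secreted growth factors that drive the growth of the skeleton, and cartilage is among the tissues that respond to them and make them. Both act through Igf1r, a receptor tyrosine kinase that signals through insulin receptor substrates, PI3 kinase and AKT. The binding proteins hold the ligands outside the cell and either restrain them or release them at the receptor, and proteases of the pappalysin family cut several of them. Igf2 is an imprinted gene that is strongly used in fetal tissues and is known to be lowered after birth.

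The libraries differed in depth in the same direction as the passages. The genome-wide background of the peak caller was 194 and 162 tags per 10 kb at P0 (libraries A and B, an order kept below) and 140 and 134 tags at P8. A tag is a read position extended to 73 bp. The number of peaks ranged from 119974 to 145703 at P0 and from 89610 to 99784 at P8, a ratio of the means of 1.41. Of 8 chondrocyte marker genes, 8 had a peak within 1 kb of a gene end in each P0 library and 6 in each P8 library, where Matn1 and Snorc had none. Of 6 fibroblast markers, 6 had one in each P0 library and 4 to 5 at P8. Of 5 blood and macrophage markers, 2 had one in each P0 library and 1 in each P8 library: Spi1 had one in all 4 libraries, Cd68 at P0 alone, and Ptprc, Adgre1 and Csf1r in none. Of 4 endothelial markers, Tek and Kdr had one in all 4 libraries, and Pecam1 and Cdh5 in none. At a muscle gene end a peak was present for 3 to 4 of 4 genes at P0 and 2 at P8. The part of depth and of the cell makeup in the results below was not tested.

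Sequences from RefSeq (GRCm38.p6) are shown for 3 starts whose window of 300 bases held a peak at P0 but not at P8, and for Igfbp7, whose window held a peak in all 4 libraries. At Igf1 and Igfbp3 the nearest edge of a site with peaks in all 4 libraries lay 102 and 44 bp from the start, although its P8 peaks did not reach the window. Each line holds the 250 bases before the listed start, 5′ to 3′ on the strand of the gene. Capitals mark matches on either strand to TGANTCA (the AP-1 motif), ACAANG (SOX), TGTGGT (RUNX), GGAATG (TEAD) or GTAAACA (FOX), in which N is any base. The Igf2 sequence is chr7:142657497-142657746 on the minus strand, that of Igf1 is chr10:87860861-87861110 on the plus strand, that of Igfbp3 is chr11:7213924-7214173 on the minus strand and that of Igfbp7 is chr5:77408046-77408295 on the minus strand.
Igf2: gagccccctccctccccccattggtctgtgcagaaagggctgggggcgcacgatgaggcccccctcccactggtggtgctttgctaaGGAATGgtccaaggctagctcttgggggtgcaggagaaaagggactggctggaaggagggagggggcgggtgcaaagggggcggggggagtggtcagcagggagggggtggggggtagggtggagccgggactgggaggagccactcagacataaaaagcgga
Igf1: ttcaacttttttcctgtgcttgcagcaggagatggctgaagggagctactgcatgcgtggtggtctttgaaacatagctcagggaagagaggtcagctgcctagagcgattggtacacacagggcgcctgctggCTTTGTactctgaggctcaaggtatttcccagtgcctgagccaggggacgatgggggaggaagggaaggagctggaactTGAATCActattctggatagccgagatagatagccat
Igfbp3: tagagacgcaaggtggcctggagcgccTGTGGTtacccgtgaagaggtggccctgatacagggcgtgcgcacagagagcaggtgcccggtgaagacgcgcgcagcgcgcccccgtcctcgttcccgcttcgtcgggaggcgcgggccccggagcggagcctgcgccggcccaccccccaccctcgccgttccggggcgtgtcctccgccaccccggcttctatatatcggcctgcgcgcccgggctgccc
Igfbp7: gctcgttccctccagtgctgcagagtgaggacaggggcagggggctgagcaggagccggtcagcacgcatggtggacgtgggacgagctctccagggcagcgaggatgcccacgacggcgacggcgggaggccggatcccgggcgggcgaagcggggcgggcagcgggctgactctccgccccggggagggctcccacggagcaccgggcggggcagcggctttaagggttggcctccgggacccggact

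The 9 genes have 13 listed starts, and windows of 300 bases around them (250 before and 50 after) were compared with the peaks. Windows at Igf1r, Igfbp4 and Igfbp7 held a peak in all 4 libraries, a pattern found in 39.1% of 32851 promoter windows. At 4 starts, those of Igf1, Igf2, Igfbp2 and Igfbp3, a peak reached the window in both libraries of P0 and in neither of P8, a pattern found in 3.53% of all windows. The second listed start of Igfbp2 was covered by 15 bases in P0 library A and 1 base in P8 library B. Igfbp5, Igfbp6 and the other 3 starts of Igf2 had no peak in their windows in any library. Of these windows, 3 with peaks at P0 but not at P8 were only partly covered, by 149 and 125 bases at Igf1, 63 and 20 bases at Igfbp2, and 117 and 98 bases at Igfbp3 in P0 libraries A and B. The Igf2 window was covered over 300 and 227 bases. The windows open in all 4 libraries had from 71.3 to 76.0% G and C and from 27 to 48 CpG, against medians of 52.7% and 7 over all promoters. The windows with peaks at P0 alone had 6 CpG at Igf1, 7 at Igf2, 18 at Igfbp2 and 37 at Igfbp3, with G and C of 52.3, 63.3, 67.0 and 71.7%, so that of Igfbp3 lay within the range of the windows open in all 4 libraries.

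An AP-1 match was present in the windows of Igf1 and of the second Igfbp2 start, 2 of 13 windows against 7.81% of all promoters. A SOX match was present in 3 of 13 windows, at Igf1, Igf1r and a start of Igf2 without a peak, against 41.2% of all promoters. The only RUNX match was that of Igfbp3, against 16.8%. TEAD matches were present in 4 windows, 3 of Igf2 and 1 of Igfbp5, against 14.7%. No window held the FOX letters, which were in 3.65% of all promoters. These matches describe letters in the window and do not show that a factor was bound.

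Over all 9 genes together, the windows of 50 kb held 174 and 147 peaks at P0 against 93 and 123 peaks at P8. On average there were 160.5 ± 19.1 peaks at P0 and 108 ± 21.2 at P8 (SD, n = 2), a ratio of 1.5 ± 0.349. The ratio of 1.41 over the whole genome lay within that spread. The groups did not overlap, and an exact permutation test (two-sided) gave p = 0.33, which is the lowest value that 2 against 2 libraries allow. At 7 of the 9 genes each P0 library had more peaks than either P8 library, compared with 44.9% of 21887 protein-coding genes. Of those 21887 genes, 18882 had a peak within 50 kb in all 4 libraries, as had all 9. Genes without peaks cannot separate the groups, and the share among genes with like numbers of peaks was not tested. In none of the 9 genes did both P8 libraries hold more, compared with 3.67% of all genes. When peaks were kept at matched depth, 5 of the 9 genes had more peaks in both P0 libraries, compared with 43.3% of all genes. The 2 genes that then overlapped in addition to Igf1 and Igfbp2 were Igfbp4 and Igfbp7. With peaks inside the gene alone, the count was 4, for which the share of all genes was not computed.

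**Figure D1:**
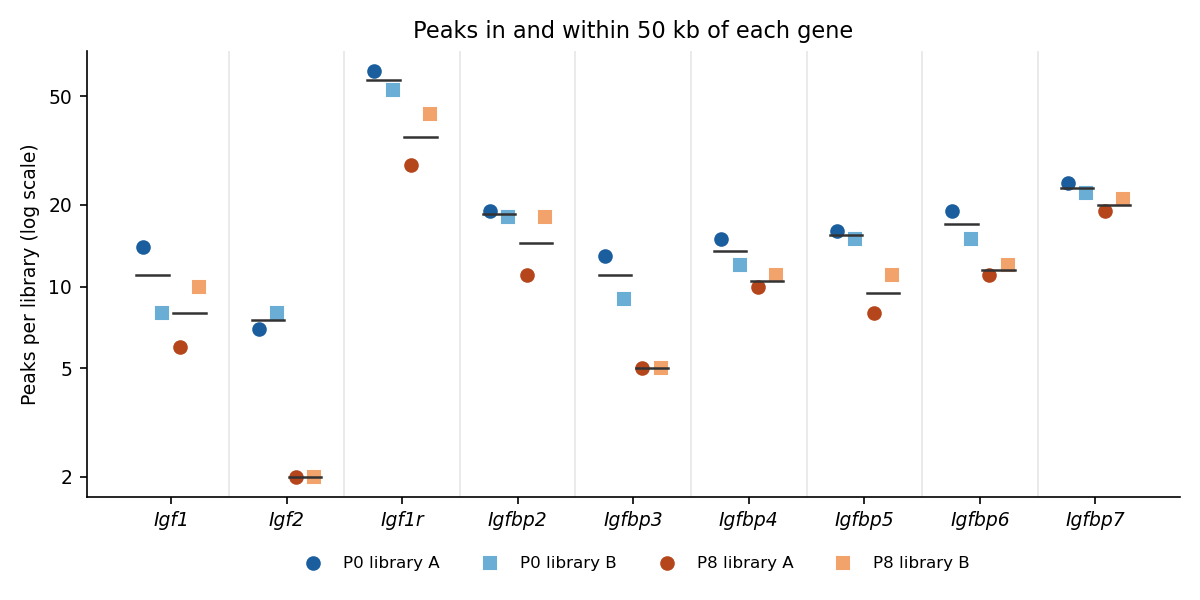
Number of ATAC-seq peaks in each gene or within 50 kb of it (log scale), with blue points for the 2 P0 libraries, orange points for the 2 P8 libraries and bars for the mean of each passage. Both P0 points lie above both P8 points except at Igf1 and Igfbp2, and the widest relative gap is at Igf2, with 7 and 8 peaks against 2 and 2.

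Of the 197 sites, 66 (33.5%) had a peak in all 4 libraries, a pattern found at 32.4% of all sites of the genome. Peaks at P0 alone, that is in both libraries of P0 and neither of P8, were found at 38 sites (19.3%), compared with 17.1% of all sites. The opposite pattern was found at 3 sites (1.52%), compared with 1.82% of all sites. These shares lay near those of the genome. Of the remaining sites, 45 were in 1 P0 library, 13 in 1 P8 library and 32 in another mixture. By position, 98 sites lay inside a gene, 14 within 1 kb of a listed start, 47 upstream and 38 downstream. The gene table gives no exons, so exons and introns were not told apart. Peaks in all 4 libraries made up 35.7% of the sites near a start, 35.7% of those inside a gene, 31.9% upstream and 28.9% downstream.

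Sites found at P0 alone had summit pileups (tags at the highest point of a peak) from 7 to 61 with a median of 14.5. The lowest pileup that was called in these windows was 6 to 7 tags in each library. The pileup needed for a call rises with the local background, so the limit was higher at some sites. Whether sites without a peak at P8 lay just under their limit in the shallower libraries was not tested. The genes also differed in their number of sites. Sites at P0 alone were 16 of 69 at Igf1r, 5 of 23 at Igfbp6, 4 of 27 at Igfbp7 and 4 of 13 at Igfbp3. They were 3 of 6 at Igf2, 2 of 17 at Igf1 and 0 of 17 at Igfbp4. The other 4 were assigned to Igfbp5, and 3 of these also lay in the window of Igfbp2, to which none was assigned.

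The fold enrichment is the pileup over the local background, each with 1 added by the peak caller. The added 1 weighs more where the background is low, so the ratio still depends on depth. Over the 66 sites with a peak in all 4 libraries, the fold enrichment was higher at P0 at 1 site, compared with 3.76% of 55294 such sites in the genome. It was higher at P8 at 5 sites, compared with 6.23% (limma on log2 values centred on the median of each library, adjusted p under 0.05). The 5 sites were the 3 of Igf1r and those of Igfbp3 and Igfbp7 described below. Summit pileup was higher at P0 at 8 sites, compared with 8.93% of such sites in the genome, and higher at P8 at 9 sites, compared with 13.7%. By both measures 5 sites passed, 1 by fold enrichment alone and 12 by pileup alone. Centring removed a difference between the passages of 0.27 in the median log2 fold enrichment and 0.64 in the median log2 pileup, both higher at P0, so each difference given is relative to the median shared site. Of all genome calls by fold enrichment, 37.6% were higher at P0 after centring and 91.7% without it. Without centring, 5 of the 66 sites were called higher at P0, compared with 6516 of the 55294 sites in the genome. Higher at P8 were 0 of the 66 (2 at an unadjusted p under 0.05), compared with 589 of the 55294. The 5 sites named as higher at P8 kept a negative difference without centring. With either P0 library left out, no site of the 66 was called by limma in either measure, but P0 is then a single library that is assumed to vary like the P8 pair, so the lost calls say little about the size of the differences. At an unadjusted p under 0.05 the fold enrichment was then higher at P0 at 2 sites and at P8 at 11 without P0 library A, and at 1 and 7 sites without P0 library B. The difference stayed at 0.83 and 0.77 at the Igfbp2 site, from −0.39 to −0.93 at the 5 sites higher at P8 without P0 library A, and from −0.44 to −0.67 without P0 library B. Without P8 library A none of these 5 sites passed (limma, adjusted p from 0.0554 to 0.193). At Igf2 the pileup difference was 1.65 without P0 library A (limma, adjusted p = 0.144) and 1.44 without P0 library B (limma, adjusted p = 0.216).

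**Figure D2:**
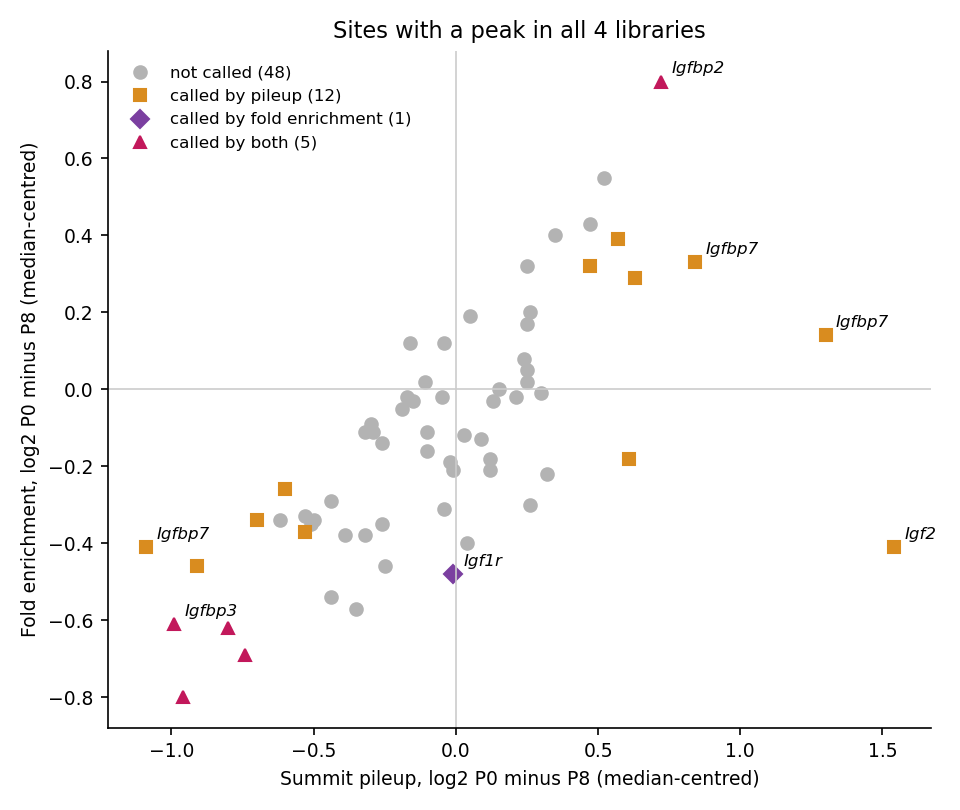
Difference between P0 and P8 (log2, median-centred) in fold enrichment against that in summit pileup for the 66 sites with a peak in all 4 libraries, with symbols for sites that passed the limma test by either or both measures. Igf2 lies apart at the right, at 1.54 by pileup and −0.41 by fold enrichment, and Igfbp2 has the highest fold enrichment difference, 0.80.

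Igf2 (chr7:142650768-142666816, minus strand), the fetal ligand, had the largest ratio of peak numbers among the 9 genes. Its window held 7 and 8 peaks at P0 against 2 and 2 at P8, a ratio of 3.75. Its 6 sites included 3 with a peak in both P0 libraries and none at P8. One of these spanned the start shown above (chr7:142657391-142657767), where the summit reached 39 and 35 tags. A second lay 5881 bp into the gene (chr7:142651205-142651615), with 39 and 28 tags. The third lay 8882 bp before the most distal listed start and was nearer to Ins2, the insulin gene next to Igf2 (chr7:142675698-142675919), with 12 and 10 tags.

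By unscaled pileup the other sites at Igf2 were also higher at P0. At chr7:142656137-142656477 the pileup was 50 tags in each P0 library and 20 in P8 library B, with no peak in P8 library A. At chr7:142659361-142659602, which is 557 bp before the second listed start, it was 43 and 37 tags at P0 and 13 in P8 library A, with no peak in P8 library B. At the site in all 4 libraries, at the 3′ end of the gene (chr7:142649830-142651108), it was 49 and 47 tags at P0 against 8 and 14 at P8. At each of these sites both P0 values were above every P8 value that was called. At this last site the pileup was higher at P0 by 1.54 ± 0.20 on the log2 scale after median centring (SE, limma, adjusted p = 2.59e-06 over 55294 sites). Scaled to the background of each library, the ratio was 3.36.

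The fold enrichment did not show this difference. At chr7:142656137-142656477 it was 2.91 and 3.75 at P0 against 5.73 in P8 library B, and at chr7:142659361-142659602 it was 3.18 and 3.56 at P0 against 4.64 in P8 library A, so that the one P8 value was the highest at both. At the site in all 4 libraries it was 3.57 and 4.33 at P0 against 3.31 and 5.69 at P8, so the groups overlapped (log2 difference −0.41 ± 0.21, limma, adjusted p = 0.223). The log2 difference was −0.73 with P8 library A left out (limma, adjusted p = 0.0313) and −0.10 with P8 library B left out (limma, adjusted p = 0.803), where the one P8 library left is assumed to vary like the P0 pair. It was −0.69 with the mean over the peaks of the site (limma, adjusted p = 0.0423). The denominator differed between the passages, since the local background in the 10 kb around the summit was 1784 and 1380 tags at P0 against 235 and 224 at P8. These 10 kb include the peaks themselves, so tags in the peaks and tags in their surrounding were not told apart. The P0 fold enrichments were 2.31 to 4.33 at the sites inside the gene and at the start.

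**Figure D3:**
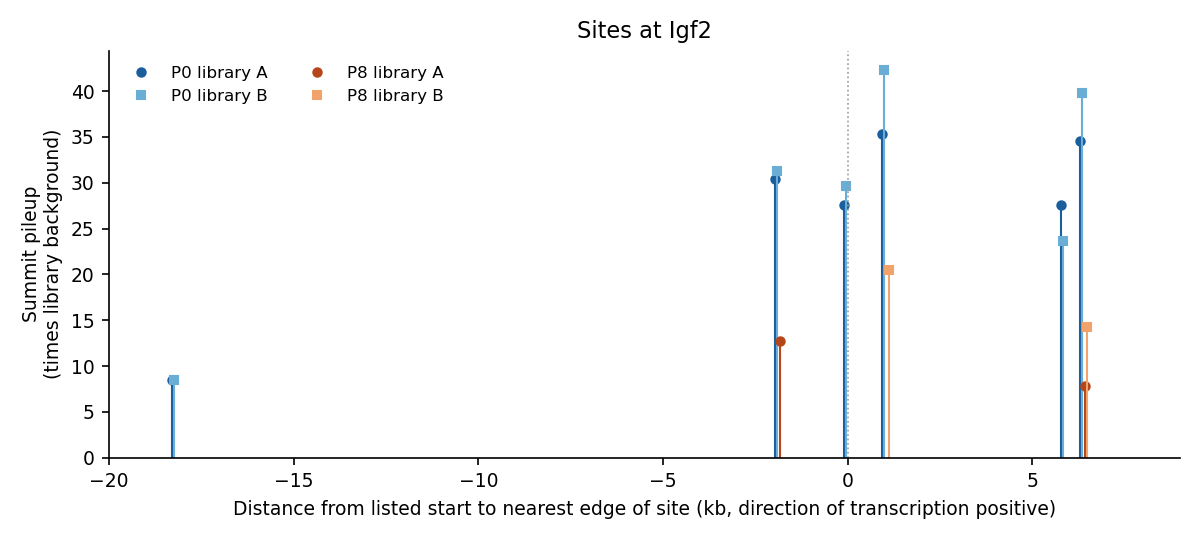
Summit pileup divided by the background of each library at the 6 sites of Igf2, against the distance from the listed start that had a peak (kb), in blue for P0 and orange for P8. At the 5 sites in or next to the gene the P0 lines stand higher than any P8 line, and 3 of the 6 sites have no P8 line.

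The local background was then compared over genes, as the highest number of tags in 10 kb around any peak in a gene or within 1 kb of it, divided by the background of the library. This measure was chosen after the values at Igf2 had been seen, and it was not tested. It is read at called peaks alone, so a library with more peaks offers more positions to it. At Igf2 the highest P0 values lay at chr7:142656137-142656477, where P8 library A had no peak. The site of Igf2 with a peak in all 4 libraries had 1784 and 1380 tags at P0 against 235 and 224 at P8. At Igf2 it stood at 11.7 and 10.6 times the library background at P0, against 1.97 and 2.72 times at P8. The lowest P0 value was 3.91 times the highest P8 value, and 6 of 15320 genes with peaks in all 4 libraries (0.0392%), Igf2 included, had a ratio as large. Each P0 library was at least 2 times each P8 library at 1 of the 9 genes, compared with 0.816% of all genes, and the reverse held at none of the 9, compared with 0.0783%. Values at Igfbp7 were 4.59 and 4.68 times at P0 and 2.78 and 2.92 times at P8. At Igf1r they were 6.17 and 5.95 times at P0 and 3.84 and 4.42 times at P8. Both P0 libraries were also above both P8 libraries at Igfbp4 and Igfbp5. Groups overlapped at Igf1, Igfbp2 and Igfbp6, and at Igfbp3 they met at 2.01 times. The ratio of the P0 mean to the P8 mean was 4.76 at Igf2, with a median of 1.22 over all genes.

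**Figure D4:**
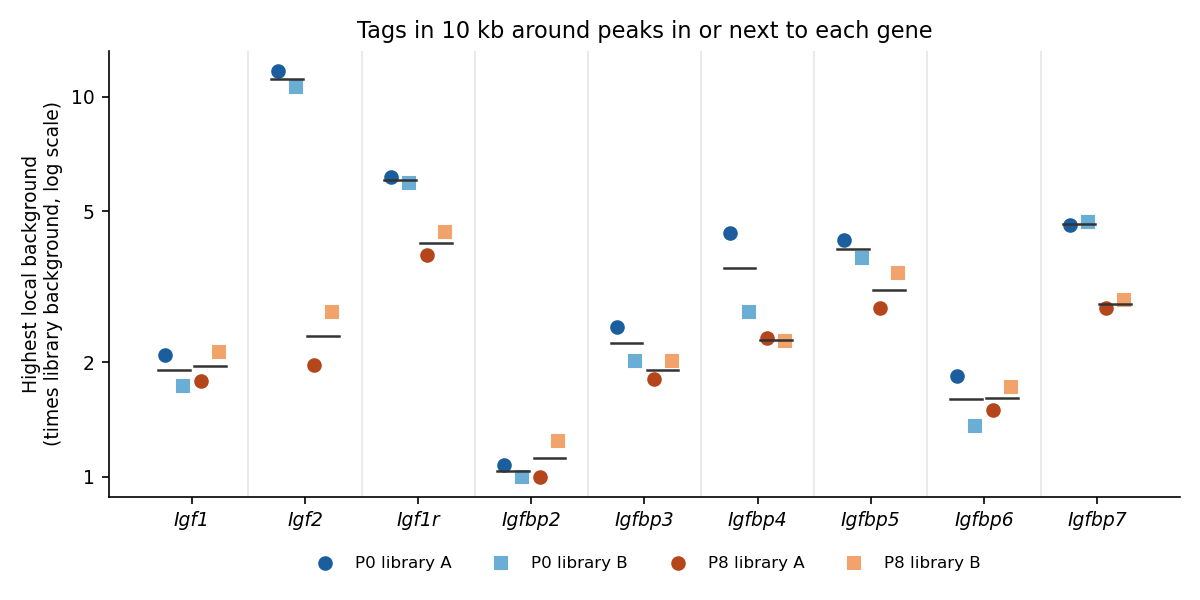
Highest number of tags in 10 kb around a peak in or within 1 kb of each gene, as a multiple of the background of the library (log scale), with blue points for P0 libraries, orange points for P8 libraries and bars for means. Igf2 stands at 11.7 and 10.6 times in the P0 libraries and at 1.97 and 2.72 times in the P8 libraries.

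Igf1 (chr10:87858265-87937047, plus strand), the other ligand, had 14 and 8 peaks at P0 against 6 and 10 at P8, so the groups overlapped. Its strongest site lay at the listed start (chr10:87860130-87861009) and had a peak in all 4 libraries. The pileup there was 32 and 24 tags at P0 against 14 and 11 at P8, and the fold enrichment was 8.33 and 8.19 at P0 against 5.31 and 4.09 at P8. The groups did not overlap in either measure, but the difference did not pass the test (fold enrichment, log2 difference 0.55 ± 0.21, limma, adjusted p = 0.104). The P8 peaks ended before the 300-base window, and the P0 peaks reached into it. A site inside the gene at chr10:87904365-87904690 had 10 and 8 tags at P0 and no peak at P8. A site downstream at chr10:87971696-87971783 had 11 and 10 tags at P0 and no peak at P8.

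Igf1r (chr7:67952257-68233668, plus strand), the receptor for both ligands, had the most sites of the 9 genes, 69, and is also the longest. Its window held 62 and 53 peaks at P0 against 28 and 43 at P8, a ratio of 1.62. At the start (chr7:67950823-67952455) a peak was present in all 4 libraries, with fold enrichments of 5.13, 5.96, 6.7 and 5.44, so the groups overlapped. The site with the highest fold enrichment lay 69334 bp into the gene (chr7:68021591-68022298), with values of 10.67 and 11.84 at P0 against 12.98 and 13.05 at P8. It was lower at P0 by this measure (log2 difference −0.48 ± 0.15, limma, adjusted p = 0.0418). Its pileup was 81 and 69 tags at P0 against 48 and 49 at P8, with a log2 difference of −0.01 ± 0.13 after centring (limma, adjusted p = 0.962).

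A further 2 sites inside Igf1r were higher at P8 by fold enrichment. At chr7:67968433-67968729 it was 5.92 and 5.53 at P0 against 8.18 and 7.2 at P8 (log2 difference −0.69 ± 0.20, limma, adjusted p = 0.0346). At chr7:68073305-68073717 it was 6.92 and 5.64 at P0 against 7.56 and 8.4 at P8 (log2 difference −0.62 ± 0.19, limma, adjusted p = 0.047). Other sites of the same gene were found at P0 alone. The strongest was at chr7:67985303-67985596, where the fold enrichment was 9.38 and 9.87 at P0. A site 16659 bp before the start (chr7:67935345-67935598) had 8.69 and 5.95, and a site at chr7:68114986-68115410 had 7.13 and 5.95. One site, at chr7:68131214-68131455, was found at P8 alone, with 4.77 and 4.87. Igf1r thus held both sites of higher fold enrichment at P8 and sites with peaks at P0 alone.

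Among the binding proteins, Igfbp3 (chr11:7206086-7215498, minus strand), the main carrier of IGF in the blood, had the largest ratio of peak numbers. Its window, which also holds Igfbp1, had 13 and 9 peaks at P0 against 5 and 5 at P8, a ratio of 2.2. There were 2 sites at the start. The one 44 bp into the gene (chr11:7213420-7213879) had a peak in all 4 libraries, with fold enrichments of 3.99 and 4.14 at P0 against 4.55 and 4.05 at P8. The one just before the start (chr11:7213945-7214107) had 13 and 16 tags at P0 and no peak at P8. A further site at P0 alone lay 19743 bp past the gene (chr11:7185948-7186343), nearest to Adcy1, and had fold enrichments of 10.68 and 9.69. The third lay upstream (chr11:7235363-7235495), with 4.83 and 3.86. A neighbouring upstream site had the opposite order. At chr11:7237727-7238173, which is 23804 bp before the start, the fold enrichment was 9.57 and 7.42 at P0 against 10.32 and 10.94 at P8 (log2 difference −0.61 ± 0.17, limma, adjusted p = 0.0314). Its pileup was 25 and 16 tags at P0 against 25 and 26 at P8 in spite of the lower depth at P8 (log2 difference after centring −0.99 ± 0.19, limma, adjusted p = 0.000373).

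Igfbp2 (chr1:72824480-72852474, plus strand) and Igfbp5 (chr1:72858065-72874865, minus strand) lie side by side on chromosome 1, and 18 sites fell in both windows. Igfbp2 had 19 and 18 peaks at P0 against 11 and 18 at P8, so the groups met. Its start site (chr1:72824467-72824942) had pileups of 14 and 9 tags at P0 and 10 in P8 library B, with no peak in P8 library A. The strongest site, 25647 bp before the start (chr1:72798388-72798833), overlapped between the groups, with fold enrichments of 12.42, 8.7, 10.38 and 11.62. The one site of the 9 genes that passed the test with a higher fold enrichment at P0 lay inside Igfbp2 (chr1:72839270-72839937). There the fold enrichment was 10.35 and 10.53 at P0 against 4.45 and 5.56 at P8 (log2 difference 0.80 ± 0.19, limma, adjusted p = 0.0138). The pileup was 24 and 22 tags at P0 against 8 and 10 at P8, and it passed the test as well (log2 difference 0.72 ± 0.24, limma, adjusted p = 0.0273). This site also falls within 50 kb of Igfbp5.

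Igfbp5, a binding protein that attaches to matrix, had 16 and 15 peaks at P0 against 8 and 11 at P8. No peak touched the window at its start, and the nearest site, 746 bp into the gene (chr1:72873831-72874119), had 18 and 19 tags at P0 and 14 in P8 library B. Inside the gene at chr1:72868927-72869255, 34 and 33 tags were found at P0 and no peak at P8. Upstream sites at P0 alone were weaker, with 10 and 12 tags at chr1:72885738-72885986 and 11 and 7 tags at chr1:72914911-72915173. Between them lay a site found at P8 alone (chr1:72897598-72897706), with 8 and 13 tags. The strongest site of all 4 libraries (chr1:72877886-72878231) differed little, with fold enrichments of 6.07, 5.58, 5.87 and 5.32.

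Igfbp4 (chr11:99040005-99052655, plus strand), a binding protein that is cut by pappalysin, had a ratio of peak numbers of 1.29. Its window held 15 and 12 peaks at P0 against 10 and 11 at P8. At the start (chr11:99040727-99041544) the fold enrichment was 6.16 and 5.75 at P0 against 4.68 and 5.04 at P8, and the difference did not pass the test (log2 difference 0.02 ± 0.20, limma, adjusted p = 0.959). The strongest site (chr11:99023947-99024613), nearest to the cell cycle gene Top2a, had values of 9.31, 9.88, 8.49 and 8.76. No site of Igfbp4 was found in both libraries of one passage alone.

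Igfbp6 (chr15:102144186-102149512, plus strand), which prefers Igf2 as a ligand, had 19 and 15 peaks at P0 against 11 and 12 at P8 in a window shared with several other genes. Of its 23 sites, 22 were nearer to another gene, such as Tns2 and Spryd3. The site nearest the start lay 1197 bp into the gene (chr15:102145383-102145773) and had fold enrichments of 7.49 and 6.91 at P0 against 4.34 and 5.21 at P8 (log2 difference 0.32 ± 0.20, limma, adjusted p = 0.308). The strongest site lay 7476 bp before the start (chr15:102135799-102136710), with 14.54 and 15.45 at P0 against 13.91 and 13.29 at P8. Near Tns2, sites at P0 alone (chr15:102106411-102106607, with 40 and 46 tags, and chr15:102112525-102112852, with 34 and 27 tags) lay beside one at P8 alone (chr15:102104276-102104465, with 25 and 35 tags). Their fold enrichments were low, at 2.14 and 3.1, 3.54 and 3.86, and 2.55 and 3.02 in the same order. Near Spryd3, a site at P0 alone (chr15:102126325-102126930) had 17 and 14 tags, with higher fold enrichments of 6.59 and 6.87.

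Igfbp7 (chr5:77349240-77408045, minus strand), a secreted protein related to the binding proteins that binds IGF only weakly, had 24 and 22 peaks at P0 against 19 and 21 at P8. Its start (chr5:77407228-77408249) was open in all 4 libraries, with fold enrichments of 7.18, 7.11, 7.76 and 6.86. By pileup, sites of this gene moved in both directions. At chr5:77399784-77400553, 7492 bp into the gene, the pileup was 57 and 50 tags at P0 against 13 and 15 at P8 (log2 difference 1.30 ± 0.17, limma, adjusted p = 1.48e-06). At chr5:77433190-77434128, 25145 bp before the start, it was 68 and 50 tags at P0 against 17 and 26 at P8 (log2 difference 0.84 ± 0.16, limma, adjusted p = 0.000251). Both sites were also above P8 in each P0 library by fold enrichment, but without passing the test (limma, adjusted p = 0.651 and 0.182). These sites were chosen after their values had been seen.

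The opposite direction was found at the strongest site of the Igfbp7 window, 47274 bp past the gene and nearest to Noa1 (chr5:77301302-77301966). Its pileup was 39 and 24 tags at P0 against 42 and 42 at P8 (log2 difference −1.09 ± 0.16, limma, adjusted p = 7.07e-06), whereas the fold enrichment of 13.8, 11.44, 13.96 and 13.8 did not pass (limma, adjusted p = 0.0694). A site inside the gene (chr5:77387065-77387635) was higher at P8 by fold enrichment, with 4.14 and 3.38 at P0 against 6.29 and 4.63 at P8 (log2 difference −0.80 ± 0.21, limma, adjusted p = 0.0252). Sites at P0 alone included chr5:77369517-77369865, with 25 and 33 tags, chr5:77400947-77401153, with 28 and 21 tags, and chr5:77346669-77346891 between Igfbp7 and Polr2b, with 14 and 10 tags.

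**Figure D5:**
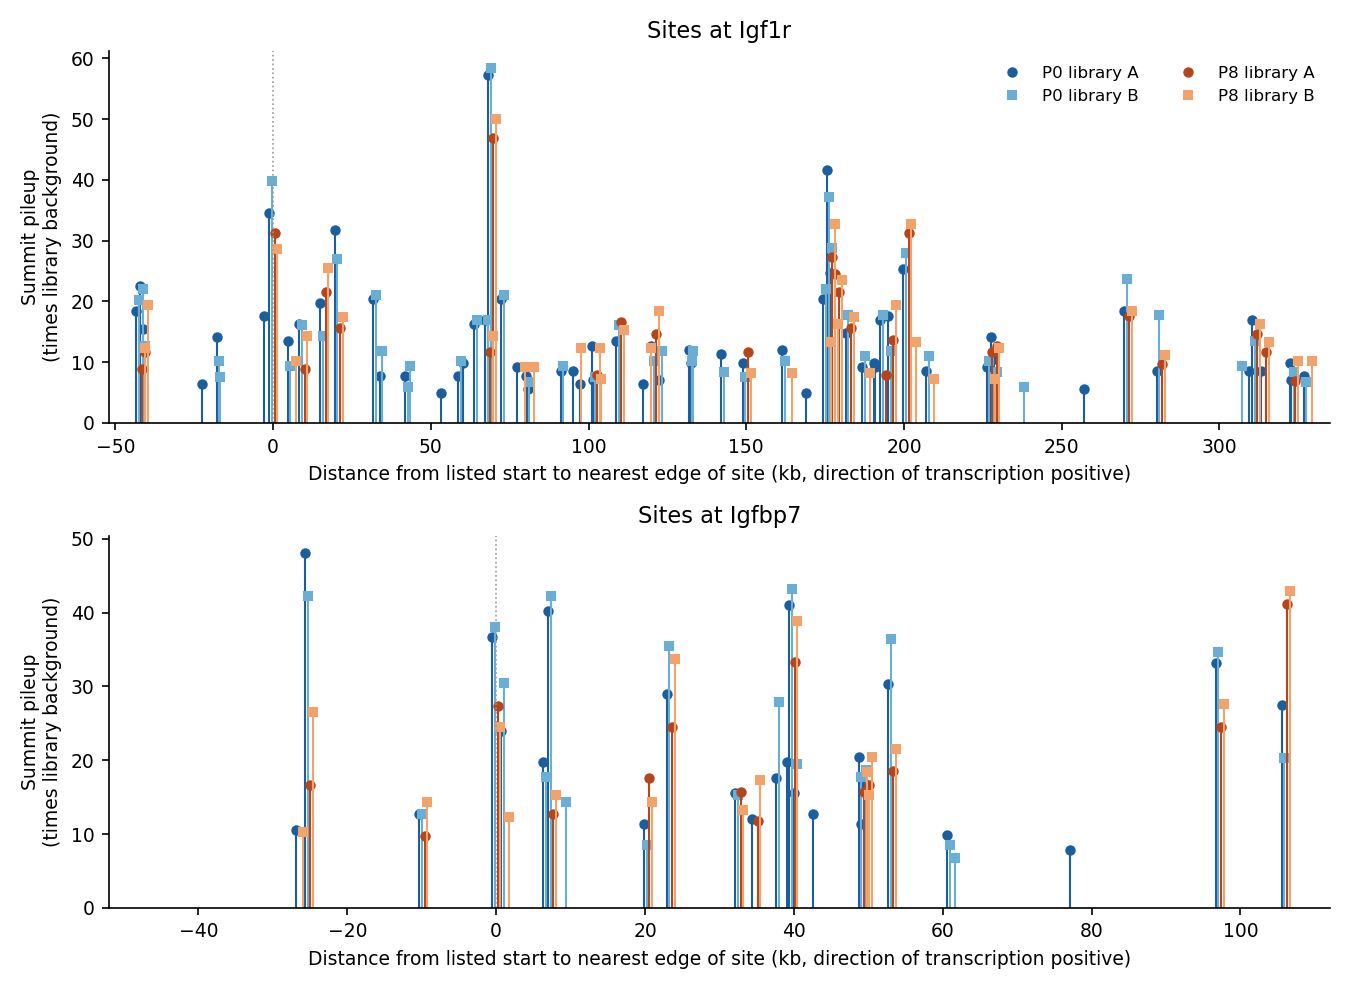
Summit pileup divided by the background of each library at the sites of Igf1r (top) and Igfbp7 (bottom), against the distance from the start (kb), in blue for P0 and orange for P8. At Igfbp7 the P0 lines stand above the P8 lines at 7492 bp into the gene and the P8 lines above the P0 lines at the far right, 106079 bp from the start.

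The highest fold enrichment in the window of a gene gave a different order of the passages from the number of peaks. Both P0 libraries were above both P8 libraries at 4 of the 9 genes (Igf1, Igfbp4, Igfbp5 and Igfbp6), compared with 70.3% of 18882 genes with a peak in all 4 libraries. For Igfbp5 the P0 values, 10.35 and 10.53, were those of the site inside the neighbouring gene Igfbp2. At Igf1r both P8 libraries were above both P0 libraries, 1 of 9 genes compared with 2.93%. By the highest pileup over the library background, the counts were 8 of 9, compared with 71.2% of genes, and 1 of 9 for the reverse (Igfbp3), compared with 4.4%. Igfbp2 and Igfbp5 shared the same P0 values, 24.0 and 27.8 times, which were those of a site inside Igfbp5 (chr1:72868927-72869255). The site of Igfbp2 with the highest mean fold enrichment had 20.5 and 15.2 times at P0 against 19.6 and 22.5 at P8, so the groups overlapped there.

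Of 27 other genes of the pathway, 23 (85.2%) had more peaks within 50 kb in both P0 libraries than in both P8 libraries. The share was 44.9% of all genes, which include genes without a peak in every library, whereas all 27 had one in each. The reverse was found at 0 of the 27, and 4 (Stc1, Igfbpl1, Mtor and Rps6kb1) overlapped. One of the 23 is Igfbp1, whose window holds the same numbers of peaks as that of Igfbp3. The median ratio of P0 to P8 peaks was 1.42 in these genes, 1.48 in the 9 genes and 1.28 over all genes with a peak at P8. The ratio of all peaks in the genome was 1.41. Among the other receptors, Igf2r, which clears Igf2, held 35 and 35 peaks at P0 against 25 and 25 at P8, and Insr, the insulin receptor, held 9 and 8 at P0 against 7 and 7 at P8. Pappa, the protease that cuts Igfbp4, held 45 and 33 peaks at P0 against 11 and 21 at P8. Among the mediators, Pik3r1, a regulatory subunit of PI3 kinase, held 28 and 21 peaks at P0 against 10 and 9 at P8. Foxo3, a transcription factor that AKT restrains, held 30 and 24 at P0 against 9 and 12 at P8. These 5 genes were picked from the list after their values had been seen. Within 1 kb of a listed start, 19 of the 27 genes had a peak in all 4 libraries, as had 5 of the 9 genes.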

How the data were processed

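Chondrocyte ATAC-seq libraries of P0 and P8 were compared, 2 of each. The authors aligned 50 bp paired-end reads with Bowtie2 (mm10 per the submitters' processing notes) and ran MACS2 separately on every library. The authors deposited, per peak, the summit pileup (a signal in tags, unscaled) and its ratio to the local background (fold enrichment). The peak caller adds a pseudocount to both terms of that ratio. P-values and q-values were deposited as −log10. A deposited DiffBind comparison (fold changes and FDR of sites) and annotations by ChIPseeker were not used. Libraries were separated by peak name, and 0 columns with values per library were left unused.

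Peaks overlapping by at least 1 bp were merged into sites and placed on the RefSeq genes of GRCm38.p6. The local background was computed from pileup and fold enrichment, as tags of 73 bp in 10 kb (whole numbers within 0.01 in 99.96% of 293954 peaks above the lowest background). For matched depth, −log10 p was recomputed at the lowest background and peaks of at least 3.38 were kept. Sites with a peak in all 4 libraries were tested with limma 3.58.1 (trend) on log2 values centred on the median of each library. Benjamini-Hochberg adjustment ran over all such sites, and no further pseudocount was added. The limma fit and interval placement were tested on simulated data. Named sites were the one nearest each start, the one with the highest mean fold enrichment, up to 3 past the limma threshold of 0.05 and up to 3 per direction found in both libraries of one passage alone, and others are named as chosen later. The members and lists were chosen with earlier results of these data known. Alternatives covered stringency, window, overlap, scaling and each library left out. P-values measure only the spread between these libraries. Python 3.11.15, pandas 2.3.3, scipy 1.17.1 and R 4.3.3 were used.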

Additional observations from a re-analysis of the deposited data

How the results depend on the processing

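No paired analysis was possible because the peak names carry no replicate number. The ratio of peaks in the windows of the 9 genes (1.5) was from 1.45 to 1.76 with matched depth, a score above the median of all peaks, windows of 10 kb, the gene body or the nearest gene only, and from 1.31 to 1.74 with each library left out. The number of genes with more peaks in both P0 libraries (7) was 4 in the gene body, 5 to 8 in the other settings and 7 to 9 with each library left out. Except at matched depth, the share of all genes was not computed for these settings, so the counts cannot be set against the genome. Sites at P0 alone (38) numbered 20 with a score above the median, 24 in windows of 10 kb, and 41 to 73 with each library left out (73 without P0 library B). Sites at P8 alone (3) numbered 12 with 50% reciprocal overlap, 1 with a score above the median, 1 in windows of 10 kb, and 3 to 12 with each library left out (12 without P8 library A, 7 without P0 library A or P8 library B).

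Sites called higher at P0 by fold enrichment (1) numbered 5 without centring, 8 by pileup, 0 with sites above the median alone (0 at an unadjusted p under 0.05), and 0 to 2 with each library left out. Sites called higher at P8 (5) numbered 0 without centring, 0 with quantile normalization, 9 by pileup, 0 with sites above the median alone (4 at an unadjusted p under 0.05), 2 with the mean over the peaks of a site, and 0 to 7 with each library left out. By pileup with each library left out, a setting added after seeing the data, 0 to 9 were higher at P0 and 0 to 6 higher at P8. Under quantile normalization 6 sites had an unadjusted p under 0.05 and a higher value at P8. At the strongest site of Igf1r the log2 difference was −0.48 by fold enrichment but −0.01 ± 0.13 by pileup. The pileup difference was 0.01 without P0 library A and 0.06 without P8 library A, shifts smaller than its SE. The cause of the gap between the 2 measures was not tested. Genes with the highest fold enrichment in both P0 libraries (4) numbered 2 by percentile within the library and 8 by scaled pileup, and those with the highest in both P8 libraries (1) numbered 2 by percentile. The share of all genes by percentile was not computed. Depth limits sites of low pileup, which may be missed in the P8 libraries.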
